A study of Mus musculus with 37 samples.

Results

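The proteins described here carry out or steer the removal of introns from pre-mRNA in mouse dendritic cells. They are the SR proteins, the heterogeneous nuclear ribonucleoproteins (hnRNPs), the SF3A and SF3B subunits of the U2 small nuclear ribonucleoprotein, and the U2AF dimer. Members were all open reading frames (ORFs) whose gene family name begins with Srsf, Sfrs, Hnrnp, Hnrp, Sf3a, Sf3b or U2af. This gave 91 of the 22367 listed ORFs, in 36 of 10418 families: 11 SR, 15 hnRNP, 8 SF3 and 2 U2AF. Here a family is the set of listed transcripts that carry a common gene name, and an ORF is a reading frame, start to stop, that the authors listed with a score.

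The ORFs were called from ribosome footprints, the RNA pieces that translating ribosomes shield from nuclease, in dendritic cells grown from the marrow of C57BL/6J mice 6 to 8 weeks old. The 37 libraries were cells that were naive, mock treated, or given 100 ng/mL lipopolysaccharide (LPS, which activates the cells through Toll-like receptors) for 0.5 to 12 h at 8 time points. Cycloheximide, which stalls elongating ribosomes, was added at 100 ug/mL for 1 min to 16 LPS, 8 mock and 2 naive libraries. A further 8 LPS libraries and 1 naive library had no inhibitor, and harringtonine (1 ug/mL, 5 min) and lactimidomycin (50 ug/mL, 30 min), which stall ribosomes at start codons, were used in 1 library each with mixed LPS times. The list serves all libraries together and holds no value per library, so these groups were not compared, the depth is unknown, and no ORF has a replicate. Of the marker genes looked up, 10 of 11 for dendritic cells had an ORF (all but Flt3), but so did 5 of 5 for macrophages, 7 of 7 for neutrophils, 3 of 4 for fibroblasts and 1 of 3 for B cells, against none of 3 for T cells. Their part in the results below was not tested.

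SR proteins bind exonic enhancers through RNA recognition motifs and recruit the splicing machinery through arginine- and serine-rich tails. hnRNPs coat nascent transcripts and often repress nearby splice sites. U2AF recognises the 3' splice site, and SF3A and SF3B anchor U2 to the branch point. Many SR and hnRNP genes are known to control their own level through splicing that brings in an early stop codon, because an mRNA whose stop lies well before its last exon junction can be degraded by nonsense-mediated decay. The listed transcripts give their exon blocks, so the distance from each stop codon to the last junction could be read. Below, early stop means only that a stop lies over 50 bases before that junction, also where it is the main stop.

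Most splicing factor families were listed with more than 1 ORF. Within a family the longest ORF was taken as the main one, and the others were compared with it by position and frame. The extra ORFs were 17 from another in-frame start, 14 splice forms with the main start and stop, 13 isoforms with another stop, 6 in another frame within the main span, 3 upstream and 2 over the main start. Of 36 families, 17 (47.2%, 95% Clopper-Pearson interval 30.4 to 64.5) had another splice form that shared in-frame codons with the main ORF, against 23.1% of all families. Another in-frame start with the main stop was listed in 9 families (25.0%, interval 12.1 to 42.2), against 23.0%. An ORF upstream of or over the main start was listed in 4 (11.1%, interval 3.11 to 26.1), against 20.2%. With the best-scored ORF of each family taken as main, these shares were 16.7% and 16.4%. A single ORF was listed in 12 families (33.3%), against 43.7%, and both the members and the whole list had a median of 2 ORFs per family. The intervals cover counting error only, and families are not replicates of an experiment, so no test was made.

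**Figure D1:**
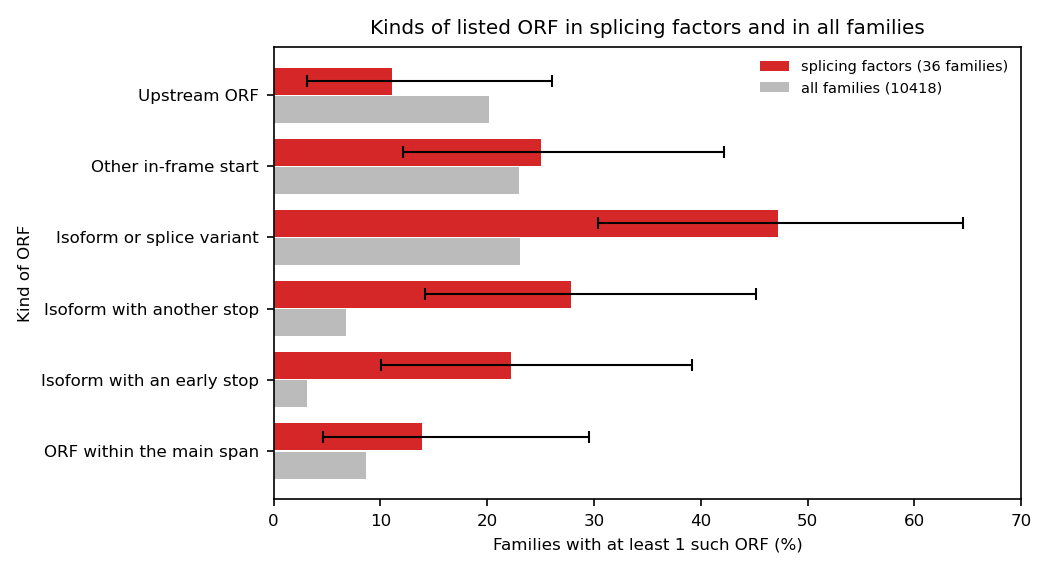
Percentage of families with at least 1 listed ORF of each kind, for the 36 splicing factor families (red, with 95% Clopper-Pearson intervals) and all 10418 families (grey). Splice forms stand at 47.2% against 23.1% and isoforms with an early stop at 22.2% against 3.10%, while in-frame starts lie close together at 25.0% and 23.0%.

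The authors' score, used here only to rank ORFs within the list, was high for most main ORFs of the splicing factors. Its median was 972 (n = 36, 95% order-statistic interval 944 to 985, quartiles 901.25 and 986), against 926 over all families (quartiles 800 and 968). The highest belonged to Srsf3, at 991. The lowest were Srsf2 at 594, Hnrnpl at 665, Sf3a1 at 713, Srsf11 at 747 and Srsf1 at 784, and in each of these 5 families a shorter ORF with the same stop scored higher. Main ORFs ranged from 86 codons in Sf3b5 to 1304 in Sf3b1, with the stop codon not counted here or below, and had a median of 8.5 coding exons. Their leaders had a median of 327.5 bases, against 186 for all main ORFs, and ran from 24 bases in Sf3b4 to 5680 in Hnrnpf. That Hnrnpf transcript is listed as 1 exon of 14733 bases, while another of Hnrnpf has 4 exons and 2532 bases. Whether the long leader holds intron sequence was not tested.

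**Figure D2:**
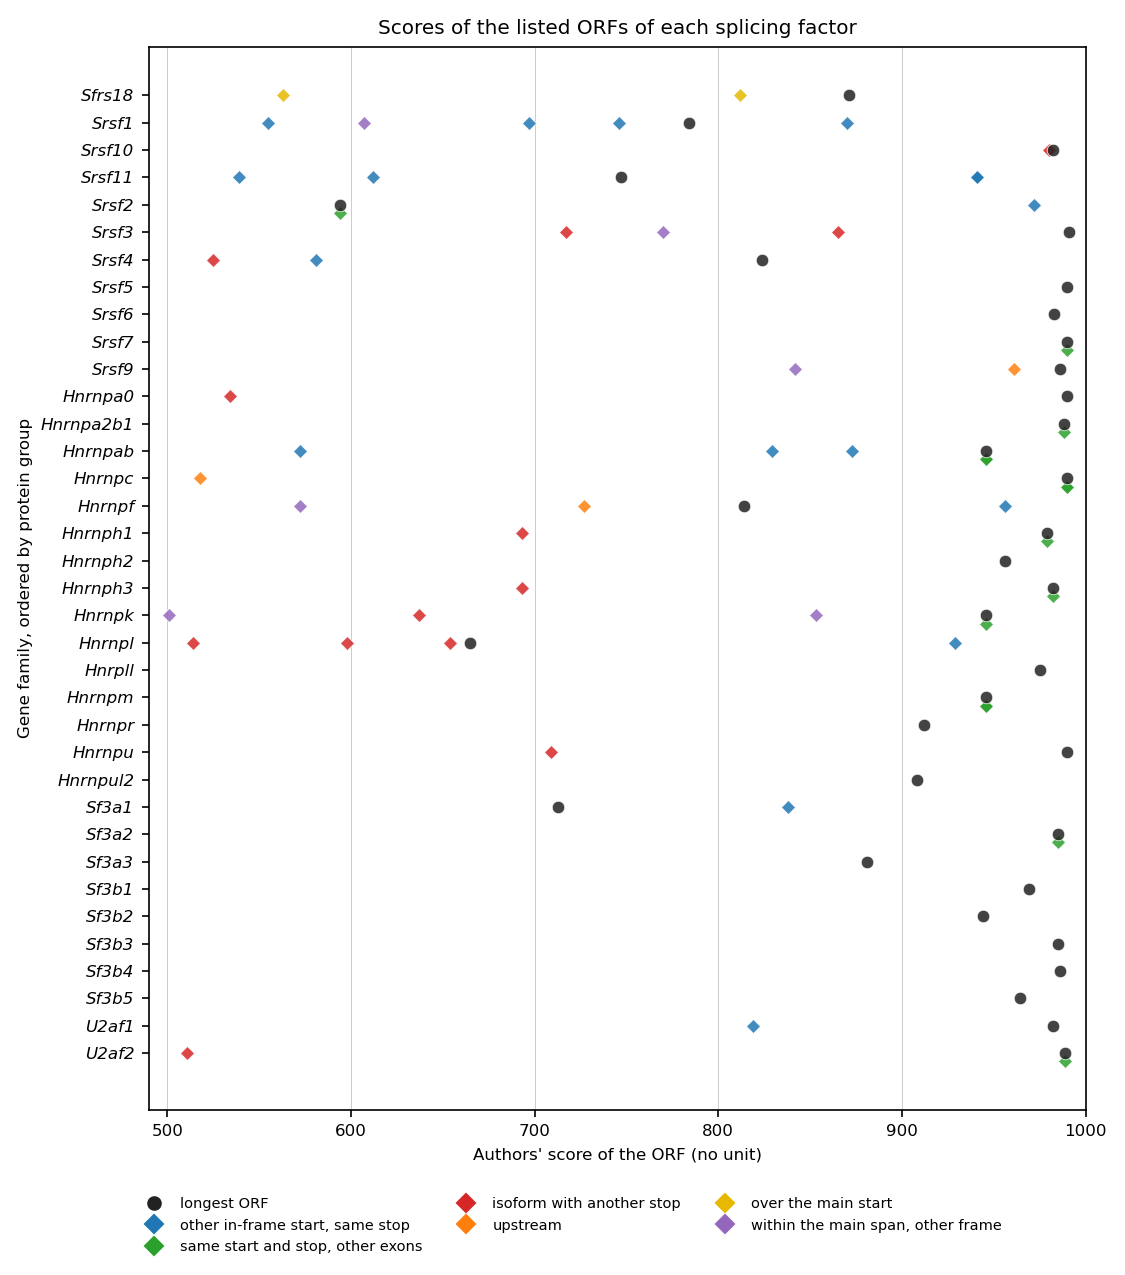
Authors' score (x axis, no unit) of all 91 listed ORFs by family, grouped by protein class. Circles mark the longest ORF and diamonds the others, coloured by kind, with splice forms of the same start and stop drawn just below the circle. Circles run from 594 for Srsf2 to 991 for Srsf3, and isoforms with another stop lie to the left of the circle of their own family.

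The SR proteins held 33 ORFs in 11 families. Srsf5 and Srsf6 were listed with only their main ORFs, of 269 and 339 codons, which scored 990 and 983. Srsf7, which also promotes mRNA export, had ORFs of 238 and 235 codons that differed by a splice site shift of 9 bases and both scored 990. Srsf3, the smallest SR protein here, had a main ORF of 164 codons at chromosome 17, 29173188 to 29178356 (all coordinates are mm9, counted from 1). It also had a 69-codon ORF from the main start that scored 865 and ended at 29173397. That ORF lay on a transcript of 3 exons that keeps a 2041-base intron of the main transcript and, further on, a 90-base one. This transcript is mostly unspliced, with 20548 bases over a genomic span of 22242. The main transcript has 7 exons and 16211 bases over a span of 24631. The 69-codon ORF shared its first 68 codons with the main ORF and had 1 codon of its own before a stop 2628 bases ahead of the last junction. The main ORF of Srsf3 itself stopped 1001 bases ahead of the last junction of its listed transcript. A further Srsf3 ORF of 18 codons on the same 3-exon transcript scored 717, and an 11-codon ORF in another frame, 29173195 to 29173230, scored 770.

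Srsf4 had the other early stop among the SR proteins. Its main ORF of 491 codons scored 824 at chromosome 4, 131429679 to 131456987. A start 32 codons inside it led to the main stop through 459 codons, scored 581, and also to a 41-codon ORF, scored 525. The shorter one shared 3 codons with the main ORF and ended in an extra exon of 207 bases that lay within an intron of the main transcript, 1011 bases before the last junction. Srsf10, a regulator that represses splicing when dephosphorylated, also had alternative ends, but not an early one. Its ORFs of 262 and 183 codons shared 163 codons from a common start, scored 982 and 980, and differed by a splice site moved 3397 bases. The shorter one stopped in the last exon of its transcript, as the longer one did.

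Several SR proteins were listed with a series of starts that led to a single stop. Srsf1 (SF2/ASF), the founding SR protein, had 5 starts, giving 248, 243, 229, 126 and 121 codons with scores of 784, 746, 870, 697 and 555. The highest score thus lay 19 codons inside the longest ORF. A 39-codon ORF in another frame, at chromosome 11, 87861363 to 87861482, scored 607. Srsf2 (SC35) scored 594 from the start that gives 234 codons and 972 from the start 13 codons further in, which gives 221. This was the largest rise over a main ORF among the in-frame starts of these families. From the first of these starts a splice form of 106 codons lacked 384 bases after 5 shared codons. Srsf11 scored 747 for its 518 codons, while a start 35 codons in, which gave 483 or 476 codons by splicing, scored 941, and starts giving 471 and 428 codons scored 539 and 612.

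An ORF upstream of or over the main start was listed in 2 of the 11 SR families (18.2%), close to the 20.2% of all families. Srsf9 had an ORF of 4 codons (chromosome 5, 115777179 to 115777193, score 961) that stopped 124 bases before the start of the 222-codon main ORF, itself at 986. It also had a 13-codon ORF in another frame within the main span, with a score of 842. The family named Sfrs18, which the naming table lists as Pnisr, an SR-rich nuclear protein rather than a classical SR protein, had an ORF of 53 codons, scored 563, and an ORF of 46 codons, scored 812. Both began in the leader of the 814-codon main ORF (score 871) and ended at a common stop, 98 bases past the main start in another frame.

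Among the hnRNPs, splice forms were the most frequent kind of extra ORF. Of 15 families, 10 had one, against 23.1% of all families. A form that kept both the main start and the main stop was listed in 7, against 17.7% of all families. One with another stop was listed in 6, against 6.75%. Hnrnph2, Hnrnpr, Hnrnpul2 and Hnrpll (now Hnrnpll) were listed with a single ORF, of 449, 632, 745 and 591 codons and scores of 956, 912, 908 and 975. Hnrnpa2b1, whose B1 form carries an extra exon near the amino terminus, had ORFs of 340 and 313 codons that both scored 988. The 313-codon form held an extra 36-base exon after the first 2 codons and lacked a 120-base exon. Hnrnpc, whose tetramers bind uridine-rich stretches, had ORFs of 313, 306 and 300 codons, all at 990, set apart from the longest by splice sites moved by 21 and 39 bases. Hnrnpm had 729, 672 and 581 codons, all at 946. Hnrnpk, a KH-domain protein that binds cytidine-rich RNA, had 463 and 439 codons at 946, which differed by a skipped exon of 72 bases.

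Hnrnpab, an A/B-type RNA-binding protein, had the most ORFs of the hnRNPs, with 6 ORFs from 4 starts and a single stop. The main start gave 323, 276 and 250 codons, all at 946, and the shorter 2 forms lacked an exon of 141 bases. Other starts gave 285, 256 and 235 codons with scores of 873, 572 and 829. The 235-codon ORF lay on a transcript without the main start. The 256-codon ORF stopped 839 bases before the last junction of its transcript, while the other forms stopped in their last exon.

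Early stops, main ORFs and in-frame starts included, were found in 7 of 15 hnRNP families (46.7%), of several types, against 9.54% of all families. Hnrnph1, an hnRNP that binds guanosine-rich RNA, had main forms of 449 and 439 codons at 979. A 136-codon ORF at chromosome 11, 50191833 to 50196071, scored 693. Its transcript skipped a 139-base exon, which is not a multiple of 3, and the ORF ran 4 codons past the point of divergence to a stop 701 bases before the last junction. Its relative Hnrnph3 showed the same layout, with main forms of 346 and 331 codons at 982 and a 186-codon ORF at 693. There a 116-base exon was skipped, 12 codons followed the divergence, and the stop lay 287 bases before the last junction.

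Hnrnpl, which represses exons near CA repeats, was listed with a weakly scored main ORF. The 555-codon main ORF, at chromosome 7, 29596023 to 29606925, scored 665. It is the longest listed, but does not begin at the first listed start, 29595930. Starts at 29595930, 29596023 and 29596032 gave 317, 286 and 283 codons, which scored 514, 654 and 598, all ending at 29603900. Their transcript used a splice site that shortened an exon by 227 bases, and the stop lay 521 bases before the last junction. A 201-codon ORF on a transcript without the main start began 354 codons into the main ORF, kept its stop, and scored 929, the highest in the family.

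The first of these Hnrnpl starts, that of the 317-codon ORF, lay 21 bases after the start of its listed transcript, close enough to be compared with the sequence table. The RefSeq gene start of Hnrnpl (GRCm38.p6) is followed by the 30 bases below, shown because they hold an ATG, in capitals, at the same offset of 21 bases.
Hnrnpl: ggaggcgggttctgcgccgccATGtcgcgg
Whether the listed mm9 transcript begins at the same base was not tested. Of the other member ORFs this close to a transcript start, the 518-codon ORF of Srsf11 had no ATG at its offset of 34 bases after either of 2 RefSeq starts, which says only that these letters are not there, and Sf3b4 was not matched.

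Hnrnpu and Hnrnpa0 had early stops by position on both of their ORFs, the main ORF among them. Hnrnpu, a nuclear scaffold protein also called SAF-A, had a main ORF of 800 codons, scored 990, that stopped 1826 bases before the last junction. Its 623-codon ORF scored 709 on a transcript that keeps an intron of 246 bases, and stopped 723 bases before the last junction. Hnrnpa0, which binds AU-rich elements, had a main ORF of 305 codons, scored 990, and a 196-codon ORF, scored 534, made by removal of 460 bases from the coding exon. Their stops lay 1302 and 1169 bases before the last junction, on listed transcripts that span 190938 and 190584 bases of the genome. Whether the far exon belongs to Hnrnpa0 was not tested. Hnrnpk had a 458-codon isoform with a score of 637 that keeps an intron of 779 bases and ends in its last exon.

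Leader ORFs in the hnRNPs were short and modestly scored. Hnrnpc had a 5-codon ORF at 518, which stopped 21 bases before the main start. Hnrnpf, an hnRNP that binds guanosine tracts, had a 12-codon ORF at 727, which stopped 185 bases before it. Its protein was listed from starts 1 codon apart, with 415 codons at 814 and 414 codons at 956. An ORF of 18 codons in another frame within Hnrnpf scored 572, and ORFs of 5 and 3 codons within Hnrnpk scored 501 and 853.

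Of the 8 SF3A and SF3B families, which are constitutive U2 components, 6 had a single ORF (75.0%), against 43.7% of all families. None had an upstream ORF or an early stop, and with 8 families these zeros cannot be set apart from the list-wide 20.2% and 9.54%. All of Sf3b1, the branch point subunit, at 1304 codons and 969, Sf3b2 at 877 codons and 944, Sf3b3 at 1217 codons and 985, Sf3b4 at 424 codons and 986, and Sf3b5 at 86 codons and 964 had no second ORF, nor did Sf3a3, at 501 codons and 881. Sf3a1 had 799 codons at 713 and, from a start 8 codons in, 791 codons at 838. Sf3a2 had 485 and 236 codons at 985, and the shorter one lacked 747 bases from within an exon.

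Both U2AF subunits had more than 1 form. U2af1, which contacts the AG of the 3' splice site, had 239 codons at 982 and, from a start 4 codons in, 235 codons at 819. U2af2, which binds the polypyrimidine tract, had 475 and 471 codons at 989, which differed by 12 bases at a splice site. Its remaining ORF had 162 codons and a score of 511, at chromosome 7, 5013890 to 5020337. All 162 codons matched the main ORF, and the stop codon lay in an extra exon of 60 bases within an intron of the main transcript, 864 bases before the last junction.

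Across the splicing factors, 10 of 36 families (27.8%, interval 14.2 to 45.2) had an isoform with a stop other than the main one, against 6.75% of all families. In 8 families (22.2%, interval 10.1 to 39.2) such an isoform stopped more than 50 bases before the last junction, against 3.10%. Among families with 2 or more ORFs these were 8 of 24 (33.3%, interval 15.6 to 55.3), against 5.50%. The 8 were Hnrnpa0, Hnrnph1, Hnrnph3, Hnrnpl, Hnrnpu, Srsf3, Srsf4 and U2af2, with 10 such ORFs between them. In Hnrnpa0, Hnrnpu and Srsf3 the main ORF also had an early stop, 1302, 1826 and 1001 bases before the last junction. Counting main ORFs and in-frame starts as well, 10 families had an early stop, against 9.54%, with Hnrnpa2b1 (1010 bases for its main ORF) and Hnrnpab added. Main ORFs alone gave 4 of 36 (11.1%, interval 3.11 to 26.1), against 6.25%. With a score of 900 or more required, 31 families were left and 4 of them (12.9%) had an early stop, all on main ORFs, against 12.6% of all families left. There the longest ORF left in a family was taken as main, also where the full-list main ORF scored below 900. The 12.9% and 12.6% lie close together, but with some main ORFs changed they are not the same measure as the 9.54%.

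**Figure D3:**
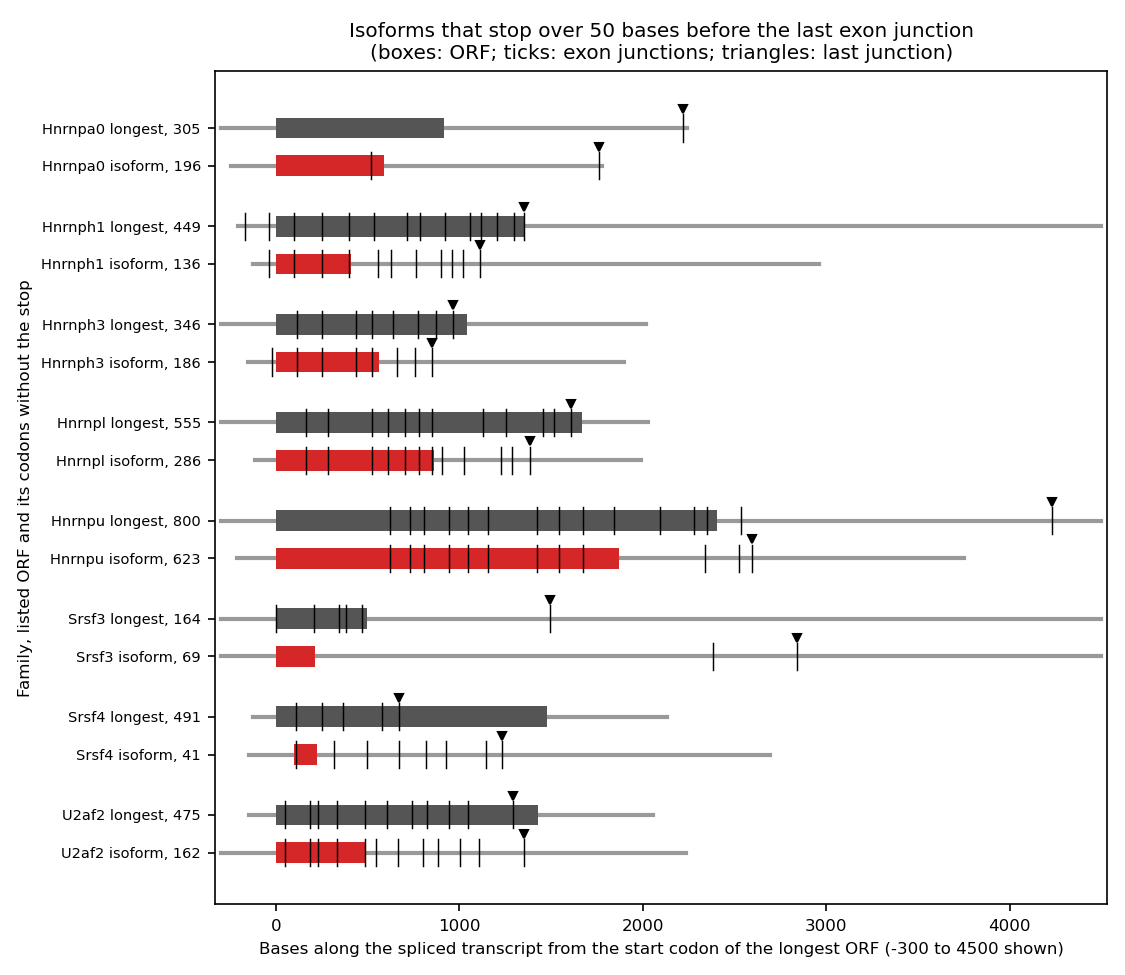
Spliced transcripts of the 8 families with an early-stop isoform, aligned at the start of the longest ORF (x axis, bases; long transcripts are cut at the frame). Boxes are the longest ORF (grey) and the isoform (red, the highest-scoring one per family), ticks are exon junctions and triangles the last junction; the isoform of U2af2 ends 864 bases and that of Hnrnph3 287 bases before the last junction.

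Splice forms that kept the main start and stop were listed in 11 families (30.6%, interval 16.3 to 48.1), against 17.7%. All 14 such ORFs had exactly the score of their main ORF, as did all 2443 in the whole list, so these forms were not scored apart from each other. Of the 9 isoforms from the main start to another stop, all scored below the main ORF, with a median difference of -286 and a range from -478 in U2af2 to -2 in Srsf10. Over the whole list, 80.0% of 646 such ORFs scored lower, with a median of -159.5.

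Where several starts led to the main stop, a shorter ORF scored highest in 6 of 9 families (66.7%), namely Hnrnpf, Hnrnpl, Sf3a1, Srsf1, Srsf2 and Srsf11, and the longest in Hnrnpab, Srsf4 and U2af1. Over the whole list a shorter ORF scored highest in 45.9% of 2396 such families, and 9 families are too few to set the members apart. Of the 17 ORFs from other in-frame starts, 7 scored above the main ORF and 10 below (58.8%), against 57.0% below over the whole list. ORFs in another frame within the main span were listed in 5 families (13.9%, interval 4.67 to 29.5), against 8.62%.

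**Figure D4:**
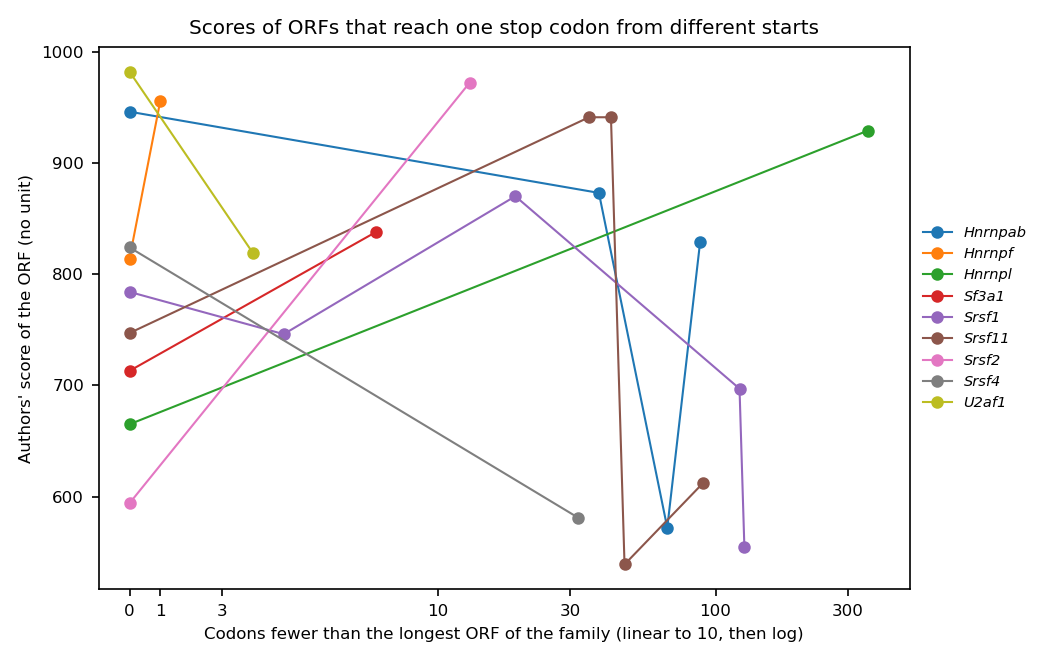
Authors' score (y axis, no unit) of ORFs that reach the main stop codon from different starts, against the number of codons by which each is shorter than the longest ORF (x axis, linear to 10 and then logarithmic), in 9 families joined by lines. Srsf2 climbs from 594 to 972 within 13 codons and Hnrnpf from 814 to 956 within 1, while U2af1 drops from 982 to 819 within 4.

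Other genes of the splicing pathway were looked up in the same way, beside the 3.10% of all families with an early-stop isoform. Among SR regulators and relatives, 4 of 19 had one. Tra2b, an SR-like activator, had ORFs of 76 and 212 codons that scored 925 and 865 and stopped 2093 and 73 bases before the last junction, against a main ORF of 288 codons at 987. Clk1, a kinase of SR proteins, had 135 codons at 624 against 483 codons at 986. Among other hnRNP-like proteins, 7 of 23 had one, among them Ewsr1, with 287 codons at 743, and Tardbp (TDP-43), with 295 codons at 550. In the 40 snRNP and core spliceosome genes there was none, a count near the list-wide share, and 23 of these were listed with a single ORF, against 43.7% of all families. The differences between these lists were not tested.

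Of 41 protein-coding symbols considered under the same names in the naming table, 36 had an ORF. Of these, 2 had it only under an older name: Hnrnpll as Hnrpll, and Sf3b6, which the name rule left out, as 0610009D07Rik, with 125 codons at 712. No ORF was listed under Hnrnpa1, Hnrnpa3, Hnrnpul1, Srsf12 or U2af1l4. The list holds no score below 500, and why these 5 genes had no ORF in it was not tested.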

How the data were processed

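Footprint libraries were made from gel-sized RNA, per the labels' protocols. Bowtie2, TopHat and mm9 are named in the submitters' processing notes, without version or role; which ORF caller was run is not given in the sources used here. Each entry of the deposited list has exon blocks, ORF span and the authors' score per ORF, a whole number from 500 to 991 of unstated scale. The length in the name matched the coding bases of all 22367 ORFs.

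Families were taken from ORF names and split by chromosome and strand. The longest ORF (ties by score, then name) was the main ORF; others were classed by shared in-frame codons and genome position. An early stop lies over 50 transcript bases before the last junction. Splicing differences were read against the main ORF's listed transcript, over the span of each ORF only. Of 36 names, 34 matched a symbol of the GRCm38.p6 RefSeq table and 2 an older name; 5 symbols had no listed ORF. No test across genes was made. Shares carry exact Clopper-Pearson intervals at the 95% level (scipy 1.17.1, Python 3.11.15). The class rules were tested on simulated data. All members were named, apart from 1 family that is not reported here; the members and gene lists were chosen with earlier results of these data known. Alternatives were stricter scores and lengths, the highest-scoring ORF as main ORF, and other class definitions.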

Additional observations from a re-analysis of the deposited data

How the results depend on the processing

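With a minimum score, the longest ORF left in each family was taken as main, so ORFs could change class. Of 36 families (31 at a score of 900 or more), 4 had an upstream ORF. That count became 1 at a score of 900 or more (3.23%, against 5.70% of all families left). With 30 codons or more it was also 1 (2.78%, against 8.60%). It was 6 (16.7%, against 16.4% of all families) with the best-scored ORF of a family taken as main. The gap to all families was gone there. The count with another in-frame start (9) became 0 at a score of 900 or more, where 0.427% of all families left had one. Inner starts of Srsf2 (972), Hnrnpf (956), Srsf11 (941) and Hnrnpl (929) passed that minimum. They were taken as main there, because the longest ORF of each of these families fell below it. The count with another in-frame start became 18 (50.0%, against 37.8%) when splice forms with the main start and stop were added. The count with a splice form (17) became 10 (27.8%, against 6.75%) when only isoforms with another stop counted. The count with an early stop (10) became 4 at a score of 900 or more (12.9%, against 12.6% of all families left). There the members did not stand apart, under the changed choice of main ORF. For main ORFs only, the count with an early stop was also 4 (11.1%, against 6.25%). It was 9 (25.0%, against 16.1%) with the best-scored ORF taken as main, and was 8 for isoforms alone, a setting chosen after seeing the data. The remaining settings moved these counts by 1 at most, apart from 12 families with a splice form at a score of 900 or more (38.7%, against 19.6%). These include Srsf11, whose ORFs of 483 and 476 codons became main ORF and splice form there. The median main score was 973.5 with the best-scored ORF taken as main. The comparison with reference protein lengths was planned and not run, because no protein table was used. The depth is unknown, so what it limits cannot be stated.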
